A study of Mus musculus with 16 samples.

Results

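Gene expression in the nucleus pulposus, the soft centre of the disc between vertebrae, was compared between mice with a conditional deletion of HIF-2α and control mice at 6 months of age. The comparison ran over 18732 of the 22206 probe sets of an Affymetrix array. These were chosen because the platform annotation gives them 1 gene symbol (19572 do) and places them on neither sex chromosome (795 on X and 45 on Y were left out). They stand for 18680 of 19505 named genes, 40 of which had several probe sets. The controls carried the genotype HIF-2αf/f, and the knockout mice (cKO) were FoxA2Cre; HIF-2αf/f, so the floxed allele was shared by both groups and the Cre was in the cKO alone. FoxA2 is active in the notochord, the embryonic rod from which the cells of the nucleus pulposus come. There were 4 arrays in each group, and 4 more of each genotype at 14 months of age. Values are log2 units as deposited, from 2.46 to 19.93 over the 16 arrays. The labels do not tie an array to a single animal, so the tests measure the spread between arrays.

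HIF-2α, encoded by Epas1, and the related HIF-1α, encoded by Hif1a, are oxygen-sensitive transcription factors. When oxygen is plentiful, prolyl hydroxylases of the EGLN family mark both proteins for destruction, and when it is low they pair with a shared partner and bind DNA at a short core motif near their target genes. HIF-1α is known above all for glycolysis, and HIF-2α for red cell production, iron uptake and, in cartilage, matrix-degrading enzymes. The nucleus pulposus has no blood vessels, and its cells make most of their energy by glycolysis.

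Several properties of the arrays bear on every value that follows. The labels do not give the sex of the mice, and it was read from 3 Y-linked genes. All 4 control arrays were female (mean level of those genes 3.30 to 3.70), cKO array 1 was female (3.43), and cKO arrays 2, 3 and 4 were male (7.97 to 8.74). Male sex and genotype cannot be told apart on those 3 arrays, so the value of the female cKO array is given beside the main results. Control arrays 1 and 3 differed from control arrays 2 and 4 in Epas1 and in several gene groups, and cKO arrays 3 and 4 carried more neutrophil marker transcript than the other 6. Both are given where they touch a result. The spread of values (interquartile range) was 3.26, 3.52, 3.16 and 3.26 on control arrays 1 to 4. On cKO arrays 1 to 4 it was 3.67, 3.34, 3.52 and 3.70, and its part in the differences was not tested. The array has no stated background level. For 1414 probe sets of odour and pheromone receptors, genes that disc cells are not known to use, the median was 5.45 on control and 5.22 on cKO arrays, and a fold that starts or ends near that level depends on the floor of the values. Below, a pair of means gives controls first and then cKO.

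Of the 18732 probe sets, limma called 693 different between cKO and control (3.7%), 541 higher (2.89%) and 152 lower (0.811%) in cKO. Counts of called genes in the lists below are to be read beside these shares. A call is an adjusted p under 0.05, two-sided, with Benjamini-Hochberg adjustment over all 22206 probe sets. The called probe sets stand for 692 genes, and 450 of them differed over 2-fold. The median difference, cKO minus control, was 1.17 over the higher calls, -1.01 over the lower calls and -0.05 over all 18732, where 44.8% of differences were positive. Quantile normalization moved the balance of the calls, to 452 higher and 261 lower. On 1519 probe sets (8.11%) the 4 cKO arrays did not overlap the 4 controls, 884 higher (4.72%) and 635 lower (3.39%), and 558 of the 693 calls were of this kind. Single arrays weighed on the count. Leaving out control array 1, 3 or 4 gave 354, 202 and 389 calls, leaving out cKO array 3 or 4 gave 289 and 246, and leaving out control arrays 1 and 3 together gave 43. The count rose to 939 without control array 2 and to 827 without cKO array 2, and was 678 without cKO array 1. The plot of difference against p shows the called genes with the widest differences on the higher side.

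**Figure D1:**
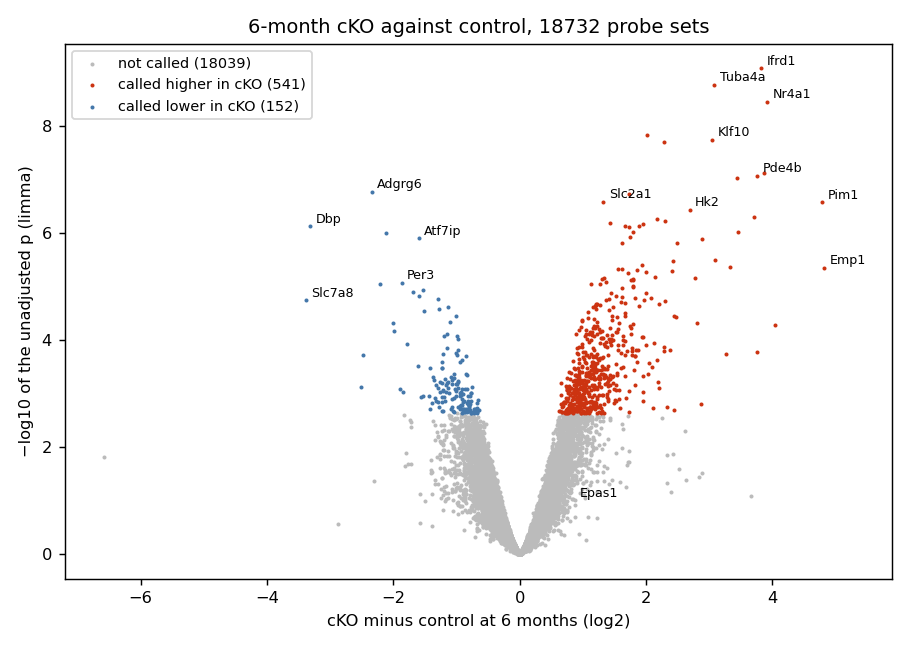
Each point is 1 of 18732 probe sets. The x axis gives cKO minus control at 6 months (log2), the y axis −log10 of the unadjusted limma p, and colours mark the 541 higher and 152 lower calls. Emp1 and Pim1 lie farthest to the right at 4.82 and 4.78, Slc7a8 and Dbp farthest to the left of the called genes at -3.38 and -3.32, and Epas1 among the uncalled points.

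The female cKO array moved with the 3 male ones over most calls. It lay above every control on 494 of the 541 higher calls and below every control on 136 of the 152 lower calls. Over all 18732 probe sets it lay above every control on 25.7% and below every control on 24.8%, and so outside the control range on 50.5%. Since this array helped to make the calls, these counts are a description. Its median difference from the control mean was 1.01 over the higher calls, against 1.21 for the male arrays, and -0.93 against -1.01 over the lower calls. With sex as a covariate in the fit, 55 probe sets passed (0.294%), 44 higher and 11 lower. With sex fitted within each age, so that at 6 months cKO array 1 alone stood for the deletion, 19 passed (0.101%).

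Epas1, the targeted gene, was not lower in cKO. Its values were 8.34, 10.63, 8.46 and 10.6 on control arrays 1 to 4 and 10.41, 9.79, 10.63 and 10.68 on cKO arrays 1 to 4 (difference 0.87, SE 0.50, adjusted p = 0.352 in limma). Control arrays 1 and 3 lay under the other 6 arrays, and controls 2 and 4 lay within the cKO range. The labels do not say where the probes lie against the deleted exons, so this value does not check them. Hif1a had a mean of 13.68 ± 0.28 in controls and 14.08 ± 0.69 in cKO (SD, n = 4; adjusted p = 0.468). Of 18 measured genes that HIF-2 controls in other tissues, 3 were called higher and 1 lower, against 2.89% and 0.811% of all probe sets. The 18 had a median difference of 0.48. The higher calls were Nampt, an enzyme of NAD synthesis (1.46, SE 0.27, adjusted p = 0.00732), Ndrg1, a stress-induced cytoplasmic protein (1.43, SE 0.34, adjusted p = 0.0246) and the mitochondrial superoxide dismutase Sod2 (0.84, SE 0.21, adjusted p = 0.0316). Slc11a2, which carries iron into cells and is a textbook HIF-2 target of the gut, fell by 1.08 (SE 0.30, adjusted p = 0.0459). None of the 4 passed with sex as a covariate (adjusted p = 0.0877, 0.271, 0.143 and 0.303), and quantile normalization ended the calls of Ndrg1 (adjusted p = 0.0541) and Sod2 (adjusted p = 0.0928).

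Genes of glucose use and of the hypoxia response were higher in cKO. In the list for glucose uptake and glycolysis, 10 of 27 measured genes were called higher and 0 lower (median difference 0.85), and of 25 other hypoxia genes, 10 were higher and 0 lower (0.88), where 2.89% of all probe sets were called higher. After quantile normalization these lists had 7 and 9 higher calls, with medians of 0.56 and 0.76. The glucose list also took in Pigq, which is not a gene of glucose use (difference -0.065, not called), and its counts include it. The glucose transporter Slc2a1 was at 18.25, 18.13, 17.84 and 18.37 in controls and at 19.28, 19.42, 19.63 and 19.56 on the cKO arrays. Every cKO array lay above every control, and the difference was 1.33 (SE 0.17, adjusted p = 0.000455), or 2.5-fold. Hexokinase 2 (Hk2), which traps glucose in the cell, was at 8.53, 9.51, 9.56 and 8.97 in controls and 10.65, 12.26, 12.36 and 12.06 in cKO, 6.45-fold higher on average (2.69, SE 0.35, adjusted p = 0.000584). Its 3 male cKO arrays lay together, and the female array was lower, yet clear of the highest control.

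The remaining glucose genes differed by less. Hk1, a second hexokinase, rose by 1.12 (SE 0.22, adjusted p = 0.0103), and Pygl, which breaks down glycogen, by 1.27 (SE 0.22, adjusted p = 0.00573). Pdk1, a kinase that holds pyruvate back from the mitochondria, rose by 1.22 (SE 0.22, adjusted p = 0.00628). Its controls lay close together, at 11.93, 11.93, 11.78 and 11.96, and cKO array 2 stood nearest to them at 12.39. At the end of the pathway the pyruvate kinase Pkm was at 17.50 ± 0.13 and 18.15 ± 0.061 and the lactate dehydrogenase Ldha at 17.67 ± 0.46 and 18.54 ± 0.12 (SD, n = 4, adjusted p = 0.0265 and 0.0258). In both genes every cKO array lay above every control. The regulators Pfkfb3 (11.86 ± 1.01 and 12.80 ± 0.47, adjusted p = 0.149) and Pfkfb4 (7.88 ± 0.20 and 7.77 ± 0.39, adjusted p = 0.849), which set the pace of glycolysis, did not pass. With sex as a covariate 4 of the 10 glucose calls held, among them Slc2a1 (adjusted p = 0.0162) and Hk2 (0.0181), and without control arrays 1 and 3, or without cKO arrays 3 and 4, 2 did.

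Among the other hypoxia genes, Bnip3, a receptor that targets mitochondria for removal, was at 12.29, 12.76, 12.11 and 11.57 in controls and 14.43, 13.37, 14.38 and 14.37 in cKO (1.96, SE 0.27, adjusted p = 0.000729). cKO arrays 1, 3 and 4 were nearly equal, and array 2 was about 1 unit lower, still above the controls. Fam162a, a mitochondrial protein induced by low oxygen, was at 11.93, 12.29, 11.21 and 11.62 in controls and 14.15, 13.14, 13.39 and 13.54 in cKO (1.79, SE 0.25, adjusted p = 0.000829), with the female cKO array the highest of the 8. Outside that list, Egln1, the prolyl hydroxylase that senses oxygen for both HIFs, was at 13.37, 13.49, 12.87 and 13.26 in controls and 14.61, 14.48, 14.79 and 14.83 in cKO (1.43, SE 0.19, adjusted p = 0.000729). The 4 cKO arrays lay close together and nearly 1 unit above the highest control. In the list, Higd1a, a mitochondrial protein, rose by 1.56 (SE 0.30, adjusted p = 0.00979), the oxidase Ero1a, which helps proteins form disulfide bonds, by 1.38 (SE 0.29), and P4ha2, which hydroxylates prolines of collagen, by 1.32 (SE 0.29). Bnip3l, a relative of Bnip3, rose by 1.02 (SE 0.22, adjusted p = 0.0169).

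Other textbook hypoxia genes did not pass. Adm, a vasodilator peptide, was at 5.5, 9.73, 6.79 and 11.61 on the controls, a spread of over 6 units, and at 8.88, 8.49, 10.74 and 10.45 in cKO (adjusted p = 0.508). The angiogenic factor Vegfa was at 14.18, 14.85, 13.55 and 15.95 in controls and 14.74, 15.2, 15.82 and 15.07 in cKO (adjusted p = 0.447), so control array 4 was the highest of all 8. Egln3, a second prolyl hydroxylase, was at 14.76 ± 0.56 and 15.38 ± 0.67 (adjusted p = 0.402), and the carbonic anhydrase Car9 at 7.87 ± 0.75 and 8.99 ± 1.40 (adjusted p = 0.256). Over the 25 hypoxia genes, the median deviation from each gene's own 16-array mean stood at -0.90 for control array 1 and -0.99 for control array 3. It was -0.22 for control array 2, -0.33 for control array 4 and between -0.29 and 0.33 for the cKO arrays. Controls 1 and 3 were thus below the other 6 arrays, and controls 2 and 4 were at the lower edge of the cKO range. Without control arrays 1 and 3 the list had 2 higher calls and a median of 0.54.

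The promoters of 4 of these genes are shown because they hold the motif that HIF proteins bind. They come from the RefSeq promoter table of mouse build GRCm38.p6, and each ends at the base before the annotated start of the gene. Capitals mark the HIF core, ACGTG or GCGTG, on either strand (CACGT or CACGC where it lies on the other strand). The lines below give Egln1 (chr8:124949255-124949404, minus strand), Bnip3 (chr7:138909507-138909636, minus), Fam162a (chr16:36071562-36071661, minus) and Slc2a1 (chr4:119108645-119108744, plus).
Egln1: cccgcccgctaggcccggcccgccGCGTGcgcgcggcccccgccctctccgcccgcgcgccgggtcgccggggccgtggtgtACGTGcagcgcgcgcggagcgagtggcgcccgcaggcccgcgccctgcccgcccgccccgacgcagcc
Bnip3: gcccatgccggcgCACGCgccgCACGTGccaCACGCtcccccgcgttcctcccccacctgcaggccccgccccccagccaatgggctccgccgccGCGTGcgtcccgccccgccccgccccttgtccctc
Fam162a: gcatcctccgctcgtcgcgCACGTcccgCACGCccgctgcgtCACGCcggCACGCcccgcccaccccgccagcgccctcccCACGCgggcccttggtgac
Slc2a1: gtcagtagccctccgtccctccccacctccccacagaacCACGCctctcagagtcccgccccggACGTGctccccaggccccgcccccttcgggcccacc
The stretch of Fam162a holds 5 matches, that of Bnip3 5, and those of Egln1 and Slc2a1 2 each. In Bnip3, 2 of the 5 overlap in CACGTG, which is counted once on each strand. In the counts that follow, here and for the elements below, a gene with several promoter entries counted if any of them held the motif. More bases were searched in such genes, among them Pdk1, Hk1, Aldoc, Ldha and Pkm with 2 entries each. Over the 250 bases before the start, the core was present in 8 of 8 called hypoxia genes with an entry, in 8 of 9 called glucose genes, in 66.5% of the 445 higher-called genes with an entry, in 40.7% of the 123 lower-called genes and in 49% of all 14991 genes with an entry. Called or not, 19 of 20 measured hypoxia genes and 20 of 25 measured glucose genes with an entry held it. Called genes of lists given below held it too. It was in 7 of 8 immediate early regulators, 3 of 4 AP-1 and small Maf genes, 6 of 8 clock genes and 5 of 9 chaperones. The sets also differed in base composition, with a median GC content of 70.6% in the called hypoxia genes, 66.4% in the called glucose genes, 61.6% in the higher calls, 52.4% in the lower calls and 56.4% in all. Its part in the motif counts was not tested, and a match is a string of letters, not a measured binding site.

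Immediate early genes are those that cells switch on within minutes of a stimulus, and Nr4a1, Csrnp1 and Atf3 of these lists are among the 12 largest rises named. Of 21 immediate early regulators outside AP-1, 12 were called higher and 0 lower (median difference 1.40), and of 14 subunits of AP-1 and small Maf factors, 4 were higher and 0 lower (1.27). Nr4a1, an orphan nuclear receptor, was at 6.1, 6.52, 5.34 and 7.3 on the control arrays and 9.58, 11.27, 10.24 and 9.83 on the cKO arrays (3.92, SE 0.37, adjusted p = 2.63e-05). The lowest cKO array was over 2 units above the highest control, and the call held with sex fitted within each age (adjusted p = 0.0339). Klf10, a zinc finger repressor first known from TGF-β signalling, was at 7.43, 7.66, 6.51 and 6.56 in controls and 9.1, 10.22, 10.72 and 10.32 in cKO (3.05, SE 0.32, adjusted p = 7.56e-05). Csrnp1, a nuclear protein induced by cytokines, was at 6.23, 7.84, 5.48 and 8.4 in controls and 9.77, 9.69, 10.21 and 10.65 in cKO (3.09, SE 0.47, adjusted p = 0.00205), where control arrays 1 and 3 lay under control arrays 2 and 4. Ifrd1, a transcriptional co-regulator outside both lists, was at 5.38, 5.68, 4.68 and 5.33 in controls and 8.94, 9.81, 8.63 and 8.96 in cKO (3.82, SE 0.33, adjusted p = 1.88e-05), and the control mean lay under the receptor level, so the size of the difference depends on the floor. Klf4 rose by 1.80 (SE 0.29, adjusted p = 0.00331) with nearly equal cKO values, and Ier5 by 2.29 (SE 0.40, adjusted p = 0.00516).

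The AP-1 subunits did not move alike. Atf3, a stress-induced partner of Jun proteins, was at 8.95, 9.64, 8.74 and 10.5 in controls and 12.26, 12.77, 13.2 and 14.46 in cKO (3.72, SE 0.49, adjusted p = 0.000729). Jund was at 11.23, 11.76, 11.5 and 11.93 in controls and 13.36, 13.64, 13.3 and 13.52 in cKO (1.85, SE 0.29, adjusted p = 0.00268), which puts the 4 cKO arrays close together and clear of the controls. Mafk, a small Maf protein, rose by 1.63 (SE 0.27, adjusted p = 0.00387) and Fosl2 by 1.14 (SE 0.31, adjusted p = 0.0462). The groups overlapped in Fosl2, where the female cKO array lay within the controls. Fos itself was at 8.79, 11.68, 8.97 and 11.36 in controls and 14.17, 10.56, 10.32 and 12.11 in cKO and did not pass (adjusted p = 0.242), and control arrays 2 and 4 lay above cKO arrays 2 and 3. Jun (1.71, SE 0.49, adjusted p = 0.054) and Junb (1.53, SE 0.55, adjusted p = 0.127) did not pass either. With sex as a covariate 2 of the 4 AP-1 calls and 3 of the 12 others held, and without control arrays 1 and 3 the counts were 1 and 3.

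In a list of MAP kinase phosphatases and other inhibitors of ERK signalling, 6 of 16 were called higher and 0 lower (median difference 0.72). Not every phosphatase of the list acts mainly on ERK. Errfi1, which binds and blocks the EGF receptor, was at 8.72, 9.49, 8.6 and 9.36 in controls and 11.43, 13.97, 12.69 and 13.55 in cKO (14.6-fold, 3.87, SE 0.45, adjusted p = 0.000232). Spred2, which blocks the kinase step above ERK, rose by 1.03 (SE 0.29, adjusted p = 0.0492). Dusp1, a MAP kinase phosphatase outside that list and 1 of the 12 largest rises, was at 13.77, 14.92, 12.72 and 16.09 in controls, spread over 3 units, and at 18.31, 17.4, 18.25 and 18.54 in cKO (3.75, SE 0.80, adjusted p = 0.0149). The related phosphatases Dusp8 (2.48, SE 0.46), Dusp10 (1.60, SE 0.36), Dusp14 (1.54, SE 0.36) and Dusp5 (1.95, SE 0.46) rose too (adjusted p = 0.00747, 0.0201, 0.0232 and 0.0233). In Dusp5 and Dusp8 the female cKO array was the lowest of the 4, at 7.96 and 7.26, and in Dusp5 it lay within the controls. Of the Sprouty inhibitors Spry1, Spry2 and Spry4, none passed (differences 0.10, -0.015 and -0.20). Dusp6 (2.26, SE 0.66, adjusted p = 0.0566), Dusp4 (0.13) and Dusp7 (-0.225) did not pass in limma either. Among 12 EGF family ligands and receptors 1 was called, the ligand Hbegf (1.35, SE 0.32, adjusted p = 0.023), and its groups overlapped. With sex as a covariate, Errfi1 kept its call (adjusted p = 0.00667), which it lost with sex within each age (difference 2.39, adjusted p = 0.159), while those of Dusp1 (0.0766) and the 4 other phosphatases (0.164, 0.286, 0.278 and 0.303) were lost. Dusp1 also lost its call without control array 3 and without cKO array 4, and without control arrays 1 and 3 together the ERK list had 1 call.

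Other signalling enzymes also stood among the largest rises. Pim1, a serine/threonine kinase induced by cytokines, was at 6.23, 7.14, 6.59 and 6.51 in controls and 10.85, 9.19, 12.58 and 12.98 in cKO, 27.5-fold higher (4.78, SE 0.61, adjusted p = 0.000455). The cKO arrays were spread over nearly 4 units, with array 2 the lowest and arrays 3 and 4, which carry the neutrophil markers, the highest. Pde4b, which breaks down cyclic AMP, was at 11.28, 11.96, 10.55 and 11.76 in controls and 14.03, 16.14, 15.02 and 15.39 in cKO (13.5-fold, 3.76, SE 0.44, adjusted p = 0.000232). Rasl11b, a small GTPase of the Ras family, was at 6.04, 7.5, 5.54 and 6.62 in controls and 8.37, 11.38, 9.4 and 9.86 in cKO (3.33, SE 0.52, adjusted p = 0.0026), and its call was lost with sex as a covariate (adjusted p = 0.0701).

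**Figure D2:**
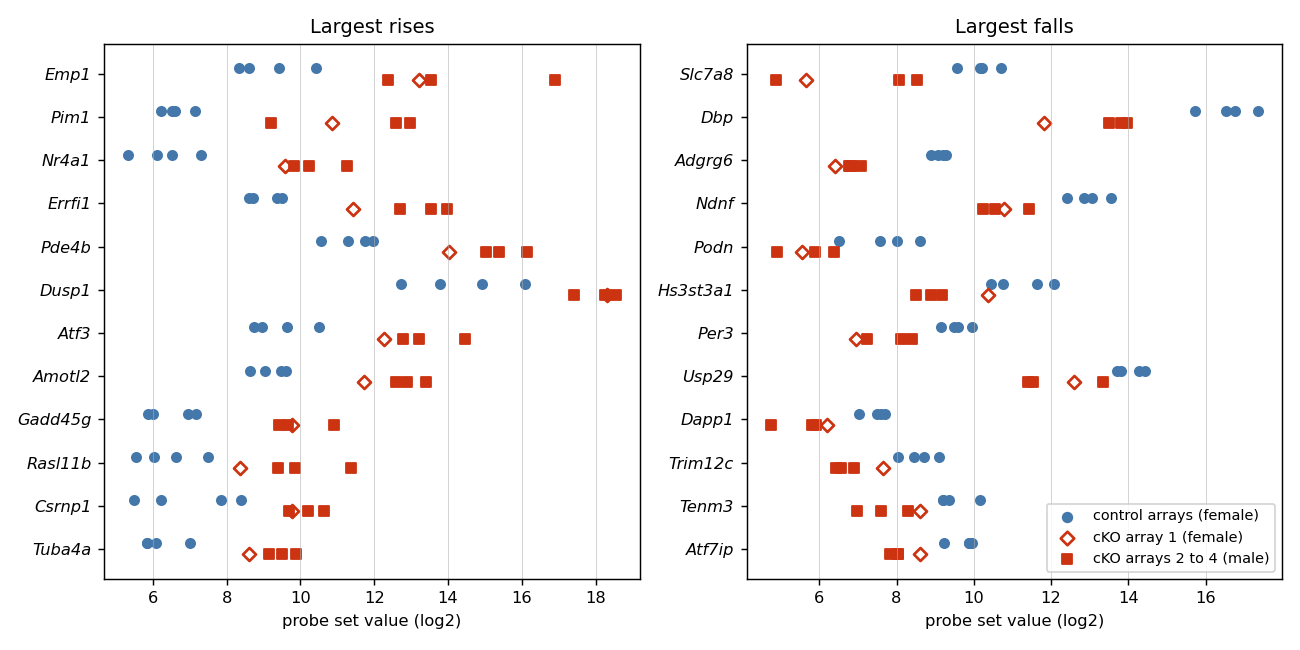
The left panel shows the 12 largest rises and the right panel the 12 largest falls among called genes whose groups do not overlap and whose lower group mean lies above the receptor median, which leaves out Epha2, Ifrd1, Plk2 and Cdh4. Each point is 1 array, the x axis is its log2 value, circles are control arrays, the open diamond is the female cKO array 1 and squares are the male cKO arrays. In Hs3st3a1 the diamond, at 10.38, lies beside the lowest control, at 10.44, and in Adgrg6 and Pde4b the groups are far apart.

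The promoters of 3 called genes hold the full cyclic AMP response element, TGACGTCA, which CREB and ATF proteins bind and which reads the same on both strands. They are Plk2 (chr13:110394944-110395043, plus strand), Dusp8 (chr7:142095285-142095404, minus) and Epha2 (chr4:141301121-141301220, plus), on the same build and ending at the base before the gene start, with the element in capitals.
Plk2: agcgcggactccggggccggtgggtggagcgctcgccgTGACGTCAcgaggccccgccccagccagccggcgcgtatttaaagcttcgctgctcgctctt
Dusp8: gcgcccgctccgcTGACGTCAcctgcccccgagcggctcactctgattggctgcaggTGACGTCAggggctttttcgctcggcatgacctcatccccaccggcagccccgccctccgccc
Epha2: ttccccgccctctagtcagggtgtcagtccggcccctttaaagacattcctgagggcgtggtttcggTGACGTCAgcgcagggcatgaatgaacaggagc
The element was found in 31 of 445 higher-called genes with a promoter entry (6.97%), in 8 of 123 lower-called genes (6.5%) and in 2.29% of all 14991. Plk2, a polo-like kinase, was at 4.25, 4.46, 4.45 and 4.74 in controls and at 5.11, 10.42, 8.25 and 7.21 in cKO (3.27, SE 0.70, adjusted p = 0.0154). Epha2, a receptor for ephrins, was at 4.65, 5.62, 4.82 and 5.72 in controls and 5.78, 11.28, 10.36 and 9.58 in cKO (4.05, SE 0.77, adjusted p = 0.00943). The control means of both lay under the receptor level. In both genes the female cKO array stood close to the controls and the 3 male arrays lay well above it, and neither passed with sex as a covariate (adjusted p = 0.245 and 0.185). The ligand Efna1 rose by 1.82 (SE 0.39, adjusted p = 0.0156), and the other 38 measured ephrin and guidance genes did not pass.

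Heat shock chaperones, which refold damaged proteins, were higher as well. Of 18 measured members 10 were called higher and 0 lower, with a median difference of 0.97. After quantile normalization 8 were called higher, with a median of 0.85. Hspa1a, the inducible HSP70, was at 8, 8.3, 8.2 and 8.89 in controls and 10.78, 10.8, 10.65 and 10.27 in cKO (2.28, SE 0.24, adjusted p = 7.56e-05). The female array was level with the males, and the call held with sex fitted within each age (adjusted p = 0.0192). Its near-identical neighbour Hspa1b, from which shared probes may not tell it apart, rose by 1.73 (SE 0.24, adjusted p = 0.000729). Dnajb4, a partner of HSP70, was at 11.67, 12.06, 11.34 and 11.85 in controls and 13.2, 13.71, 13.35 and 13.61 in cKO (1.74, SE 0.22, adjusted p = 0.000386). The small heat shock proteins Hspb8 (2.29, SE 0.31, adjusted p = 0.000729) and Hspb1 (2.00, SE 0.32, adjusted p = 0.00278) rose, and Cryab, of the same family, was at 12.94, 14.97, 13.35 and 14.9 in controls and 14.1, 15.79, 15.95 and 14.97 in cKO and did not pass (adjusted p = 0.193). The cytosolic HSP90 gene Hsp90aa1 was at 14.95 ± 0.46 and 16.12 ± 0.21 and the mitochondrial chaperonin Hspd1 at 9.41 ± 0.45 and 10.41 ± 0.12 (SD, n = 4, adjusted p = 0.0274 and 0.016). With sex as a covariate 4 of the 10 calls held, and without control arrays 1 and 3 also 4.

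**Figure D3:**
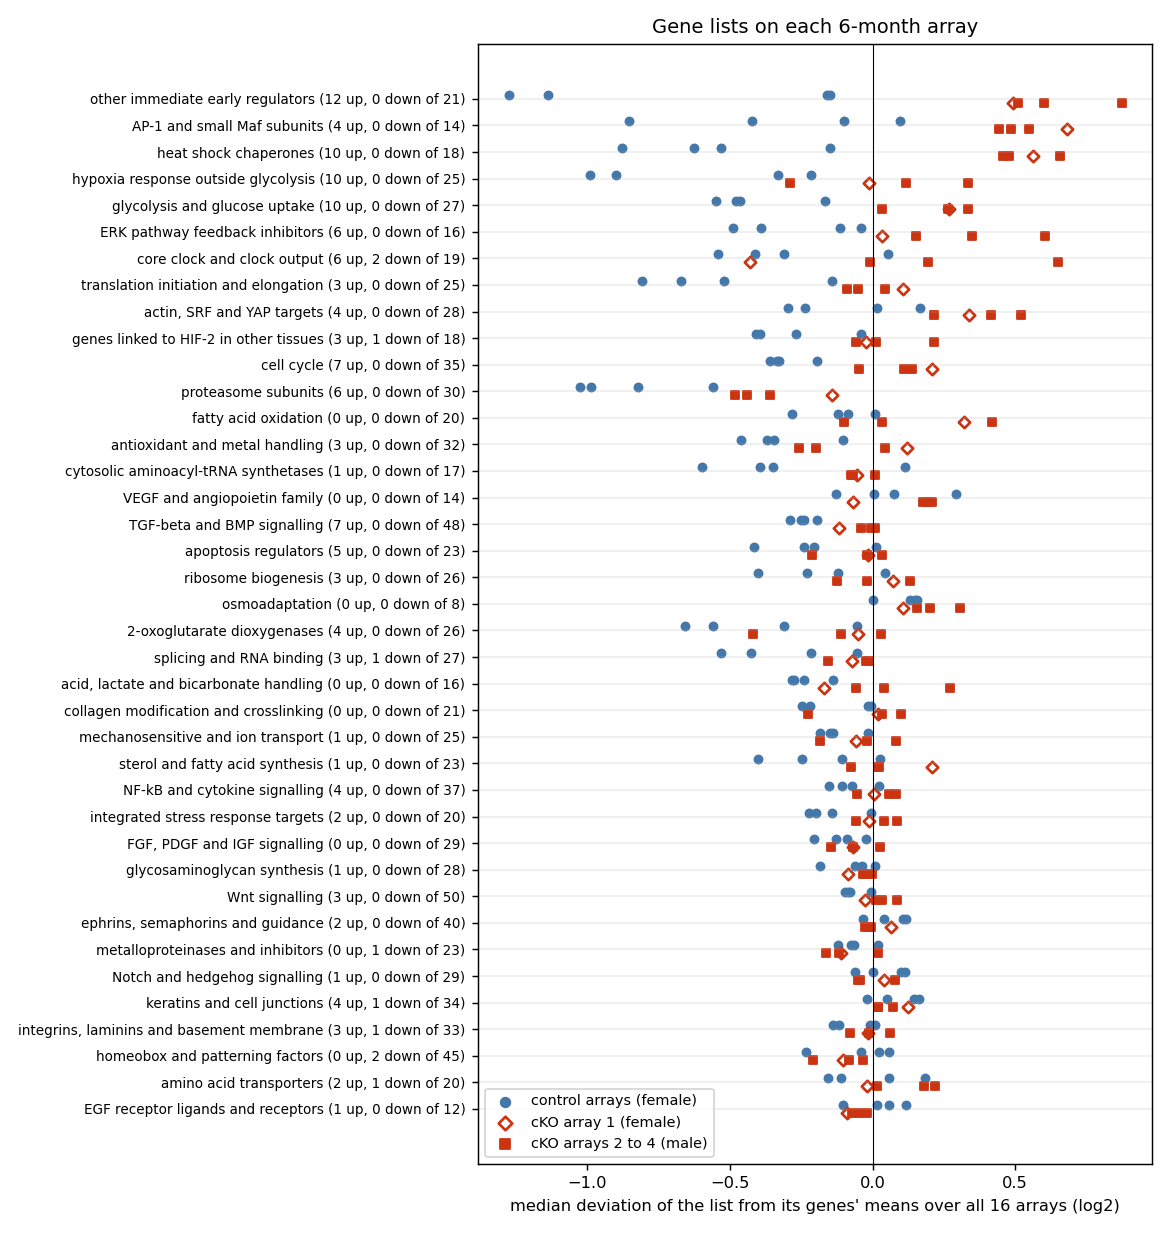
Each row is a gene list, with the number of members called up and down and the number measured. Points give, for each 6-month array, the median deviation of the list's genes from their means over all 16 arrays (log2), with controls as circles, the female cKO array as an open diamond and male cKO arrays as squares. In the immediate early, heat shock, AP-1 and glycolysis rows all cKO arrays lie to the right of 0, and in the hypoxia and immediate early rows control arrays 1 and 3 lie apart from controls 2 and 4.

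The circadian clock, a loop in which CLOCK or NPAS2 with BMAL1 (Arntl) switches on Per, Cry, Rev-erb and the output gene Dbp, differed in both directions. Of 19 measured genes 6 were called higher and 2 lower. Dbp was at 17.36, 16.77, 16.53 and 15.72 in controls and 11.82, 13.82, 13.49 and 13.97 in cKO, 9.99-fold lower (-3.32, SE 0.45, adjusted p = 0.000729). The female cKO array was the lowest, and the fits with sex as a covariate (adjusted p = 0.00075) and within each age (0.00288) kept the call. Per3 was at 9.48, 9.15, 9.95 and 9.59 in controls and 6.95, 7.23, 8.12 and 8.41 in cKO (-1.87, SE 0.31, adjusted p = 0.00355), again with the female array lowest. On the activating side, Arntl was at 7.52, 8.32, 7.86 and 9.73 in controls and 11.02, 10.07, 10.21 and 10.13 in cKO (2.00, SE 0.41, adjusted p = 0.0129) and Npas2 at 7.9, 7.85, 8.23 and 9.28 in controls and 11.5, 8.96, 9.7 and 10.43 in cKO (1.83, SE 0.45, adjusted p = 0.0273). In Arntl control array 4 stood above the other controls, and in Npas2 it lay above cKO array 2. Nfil3, a repressor that competes with Dbp for the same sites, was at 6.33, 5.87, 6.03 and 7.04 in controls and 8.25, 8.62, 7.35 and 8.21 in cKO (1.79, SE 0.29, adjusted p = 0.0033).

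The other clock genes did not follow as a block. Per1 rose by 1.27 (SE 0.30, adjusted p = 0.0243), the opposite direction to Per3, and Cry2 by 1.28 (SE 0.35, adjusted p = 0.0453). The groups overlapped in Cry2, where the female cKO array lay within the controls. Per2 was at 6.77 ± 0.35 and 7.37 ± 1.41 (adjusted p = 0.521), with cKO array 2 at 9.46 and every other 6-month array at 7.05 or lower. The Rev-erb genes Nr1d1 (0.16, SE 0.28, adjusted p = 0.801) and Nr1d2 (-0.61, SE 0.26, adjusted p = 0.194) did not pass, nor did Tef (-0.45, adjusted p = 0.352) and Hlf (-0.77, adjusted p = 0.138), the relatives of Dbp. With sex as a covariate 5 of the 8 clock calls held, more than in any other list, and with sex within each age 3 (Dbp, Per3 and Npas2). The hour at which tissue was taken is not given in the labels, and its part in these values was not tested. Without control arrays 1 and 3 the list had 0 higher and 1 lower call, and without cKO arrays 3 and 4 it had 1 and 2. At 14 months the median difference over the list was 0.12.

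The promoter of Per3 is shown because it holds 2 copies of the D-box, TTATGTAA, the element that Dbp and Nfil3 both bind. The stretch is chr4:151044766-151044885 (GRCm38.p6, minus strand), from 220 to 101 bases before the gene start, with the D-box in capitals.
Per3: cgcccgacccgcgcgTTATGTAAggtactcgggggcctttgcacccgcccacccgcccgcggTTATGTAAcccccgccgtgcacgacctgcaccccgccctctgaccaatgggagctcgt
The D-box was found in the 250 bases before the start in 1 of 8 called clock genes, which is Per3, and in 0.901% of all 14991 genes with an entry.

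**Figure D4:**
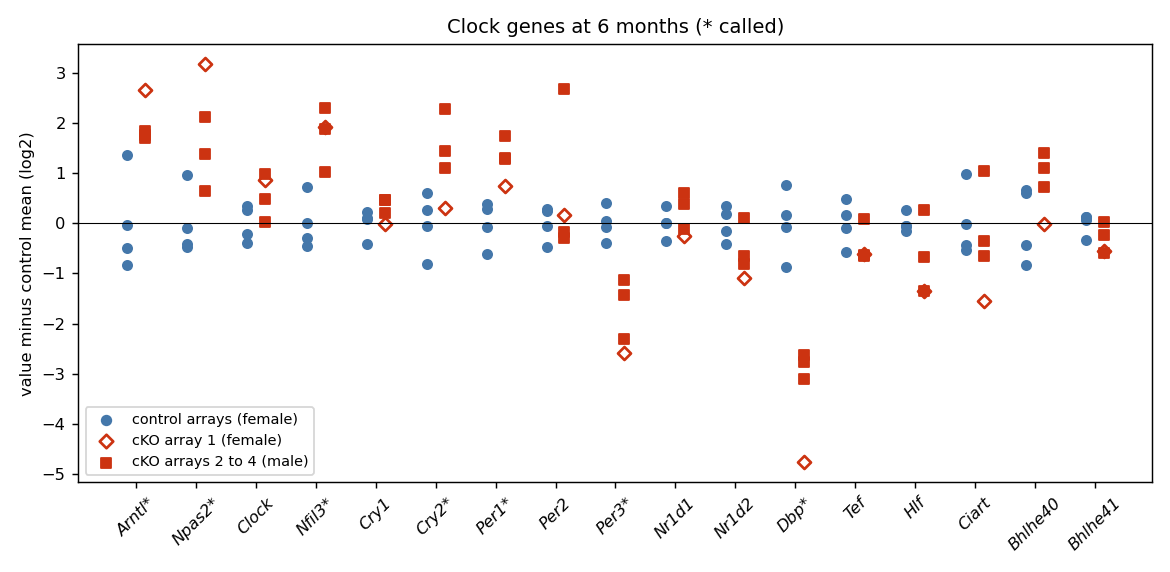
Points give the values of 17 of the 19 clock genes (Rora and Usp2 are not drawn) on each 6-month array minus the mean of the 4 controls (log2), with controls as circles, the female cKO array as an open diamond and male cKO arrays as squares, and an asterisk marks called genes. Dbp and Per3 lie wholly below 0 in cKO and Arntl and Nfil3 wholly above the controls, while Per2 has a single cKO array far from the rest.

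Of 35 measured cell cycle genes 7 were called higher and 0 lower (median difference 0.43), where 2.89% of all probe sets were called higher. Gadd45g, a stress sensor, was at 6.01, 7.16, 5.88 and 6.94 in controls and 9.77, 9.65, 9.41 and 10.91 in cKO (10.8-fold, 3.44, SE 0.41, adjusted p = 0.000232), with no overlap and the female array second highest. Its relative Gadd45b did not pass (adjusted p = 0.0905), and Gadd45a was at 8.27, 7.68, 7.93 and 7.89 in controls and 9.1, 9.85, 9.92 and 9.88 in cKO (1.75, SE 0.25, adjusted p = 0.000911). Cdkn1a, the p21 inhibitor of cyclin-dependent kinases, was at 7.7, 8.49, 8.18 and 8.85 in controls and 10.72, 10.2, 11.59 and 10.48 in cKO (2.44, SE 0.45, adjusted p = 0.00732). The other inhibitors of those kinases in the list did not pass, Cdkn1b, Cdkn1c, Cdkn2a, Cdkn2b, Cdkn2c and Cdkn2d (adjusted p = 0.652, 0.653, 0.671, 0.118, 0.739 and 0.127). The polo-like kinase Plk3 (1.96, SE 0.34, adjusted p = 0.00516) and Pcna, the sliding clamp of DNA replication (1.09, SE 0.22, adjusted p = 0.0123), rose as well, the latter not after quantile normalization (adjusted p = 0.0516). The proliferation marker Mki67 was at 6.80 ± 0.23 and 6.89 ± 1.09 (adjusted p = 0.919). Without control arrays 1 and 3 the cell cycle list had 2 calls, and without cKO arrays 3 and 4 it had 4. Of 23 apoptosis regulators 5 were higher and 0 lower. Beside Bnip3 and Bnip3l they were Pmaip1 (1.88, SE 0.40, adjusted p = 0.0141) and Bcl2l11 (1.10, SE 0.28, adjusted p = 0.0338), 2 BH3-only killers, and the executioner Casp6 (0.76, SE 0.19, adjusted p = 0.0291).

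In TGF-β and BMP signalling, 7 of 48 genes were called higher and 0 lower, where 2.89% of all probe sets were called higher. They were the ligand Tgfb2 at 10.96, 10.57, 10.2 and 10.79 in controls and 11.94, 13.15, 12.16 and 12.09 in cKO (1.71, SE 0.36, adjusted p = 0.0147), the transducer Smad3 (0.76, SE 0.18, adjusted p = 0.0243), the corepressors Skil (2.29, SE 0.48) and Tgif1 (1.64, SE 0.37), the BMP target genes Id1 (1.20, SE 0.33) and Id3 (1.51, SE 0.40), and the activin antagonist Fstl3 (1.34, SE 0.36). In Skil and Tgif1 the groups overlapped, where the female cKO array was at 10.17 and 5.72, within the controls, and none of the 7 passed with sex as a covariate. Without control arrays 1 and 3, or without cKO arrays 3 and 4, that list had 0 calls. Of 50 Wnt genes 3 were higher, the scaffold Axin1 (0.94, SE 0.18, adjusted p = 0.01), the ligand Wnt11 (0.99, SE 0.26, adjusted p = 0.0363) and the receptor Fzd7 (0.75, SE 0.21, adjusted p = 0.048). The median of the Wnt list lay at -0.004 and turned positive after quantile normalization (0.031) and with arrays shifted to one median (0.064). Of 29 Notch and hedgehog genes 1 was higher, the Notch target Hes1 (1.43, SE 0.29, adjusted p = 0.0124), and Shh, which the adult nucleus pulposus secretes, was at 9.36 ± 0.44 and 9.38 ± 0.38 (SD, n = 4). Of 29 FGF, PDGF and IGF genes and 14 VEGF and angiopoietin genes, 0 were called in limma. Of 37 NF-κB and cytokine genes 4 were higher. Socs3, a brake on cytokine receptors, was at 4.75, 5.68, 5.1 and 5.46 in controls and 8.6, 6.15, 6.42 and 9.36 in cKO (2.39, SE 0.50, adjusted p = 0.0141) with its controls near the receptor level, the TWEAK receptor Tnfrsf12a rose by 1.53, the chemokine Cxcl2 by 1.16 and the NF-κB inhibitor Nfkbia by 1.33 (adjusted p = 0.0294, 0.0387 and 0.0493).

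Genes of the cell surface and the cytoskeleton differed in both directions. Emp1, a membrane protein of the PMP22 family, had the largest rise, from 8.33, 9.43, 8.61 and 10.41 in controls to 13.21, 16.9, 13.55 and 12.38 in cKO, 28.1-fold (4.82, SE 0.75, adjusted p = 0.0026). cKO array 2 was over 3 units above the other cKO arrays, and the call was lost with sex as a covariate (adjusted p = 0.066). Its relative Emp2 rose by 1.04 (SE 0.28, adjusted p = 0.0383). Krt18, a keratin of notochordal cells, was at 13.85, 14, 13.42 and 14.09 in controls and 15.79, 15.38, 15.84 and 15.4 in cKO (1.76, SE 0.35, adjusted p = 0.0107). Its partner Krt8 did not pass (0.75, SE 0.22, adjusted p = 0.0579), and Krt19, at 17.69 ± 0.39 and 17.19 ± 0.29, lay the other way (adjusted p = 0.241). The junction protein Jup rose by 1.19 (SE 0.28, adjusted p = 0.0244), and the cadherin Cdh4 fell by 2.51 to a cKO mean of 4.89 ± 0.46, below the receptor level (adjusted p = 0.0281). Of 33 integrin and basement membrane genes, 3 were called higher and 1 lower, against 2.89% and 0.811% of all probe sets. The laminin chains Lamb3 (1.17, SE 0.27) and Lamc1 (1.14, SE 0.28) and the syndecan Sdc4 (1.23, SE 0.24) were higher and Sdc1 (-0.86, SE 0.24) was lower (adjusted p = 0.0212, 0.0272, 0.00951 and 0.0484). The call of Sdc1 was lost with arrays shifted to one median (adjusted p = 0.0552).

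Of 28 genes that actin tension switches on through SRF and YAP, 4 were called higher and 0 lower (median difference 0.53). Amotl2, which binds YAP at cell junctions, was at 9.46, 9.03, 8.63 and 9.61 in controls and 11.71, 12.58, 12.89 and 13.39 in cKO (11-fold, 3.46, SE 0.48, adjusted p = 0.000829). Ccn1, a secreted YAP target, was at 16.79, 16.37, 14.68 and 16.23 in controls and 17.67, 18.13, 18.67 and 18.92 in cKO (2.33, SE 0.64, adjusted p = 0.0442). Control array 3 was the lowest of the 8, and the call was lost after quantile normalization (adjusted p = 0.0799). The related Ccn2 was at 9.89 ± 0.90 and 11.50 ± 0.62 and did not pass (adjusted p = 0.113). Tropomyosin 4 (Tpm4) rose by 1.64 (SE 0.33, adjusted p = 0.0109) and the actin-bundling Tagln2 by 1.23 (SE 0.32, adjusted p = 0.0343). Tuba4a, an α-tubulin, was at 5.85, 7.01, 6.08 and 5.85 in controls and 8.6, 9.14, 9.5 and 9.88 in cKO (8.47-fold, 3.08, SE 0.28, adjusted p = 1.93e-05), and kept its call with sex within each age (adjusted p = 0.028).

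The 12 largest falls named include Dbp and Per3, given above with the clock. Slc7a8, a transporter that exchanges neutral amino acids, was at 9.56, 10.21, 10.71 and 10.17 in controls and 5.65, 8.07, 8.53 and 4.88 in cKO, 10.4-fold lower (-3.38, SE 0.59, adjusted p = 0.00516). The cKO arrays split, with arrays 2 and 3 above 8 and arrays 1 and 4 near the receptor level. In the same list Slc3a2, the heavy chain that Slc7a8 pairs with, was at 13.79, 13.78, 12.9 and 13.59 in controls and 14.35, 16.01, 14.67 and 15.1 in cKO and rose (1.52, SE 0.30, adjusted p = 0.0103), as did the arginine transporter Slc7a1 (1.13, SE 0.28, adjusted p = 0.0291). The groups overlapped in Slc7a1, where the female cKO array lay within the controls. The other 17 amino acid transporters did not pass. Adgrg6, an adhesion receptor needed for a straight spine, was at 9.07, 9.27, 8.89 and 9.19 in controls and 6.4, 6.76, 6.81 and 7.08 in cKO (-2.34, SE 0.29, adjusted p = 0.000376). Each group lay close together, with a wide gap between them, and the call held with sex within each age (adjusted p = 0.00472). Ndnf, a secreted neurotrophic factor, was at 12.84, 13.56, 12.41 and 13.06 in controls and 10.78, 10.56, 10.24 and 11.43 in cKO (-2.22, SE 0.37, adjusted p = 0.00356).

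Podn, a small leucine-rich proteoglycan, was at 7.58, 8.62, 6.52 and 8.02 in controls and 5.54, 5.88, 6.38 and 4.9 in cKO, where 1 array lay under the receptor level (-2.01, SE 0.38, adjusted p = 0.00859). Hs3st3a1, which adds sulfate to heparan chains, was at 11.63, 10.76, 12.08 and 10.44 in controls and 10.38, 8.51, 8.89 and 9.17 in cKO (-1.99, SE 0.39, adjusted p = 0.0101), and its female cKO array nearly touched the lowest control. Usp29, a deubiquitinase (-1.84, SE 0.47), Dapp1, an adaptor of B cell signalling (-1.79, SE 0.37), Trim12c, a tripartite motif protein with close copies (-1.69, SE 0.29) and the teneurin Tenm3 (-1.61, SE 0.36) fell with adjusted p of 0.031, 0.0127, 0.00451 and 0.0195. None of these 4 or Hs3st3a1 passed with sex as a covariate. Atf7ip, a partner of the histone methyltransferase SETDB1, was at 9.96, 9.87, 9.23 and 9.87 in controls and 8.62, 8.05, 7.83 and 8.04 in cKO (-1.60, SE 0.23, adjusted p = 0.000943), and passed there (adjusted p = 0.0307). Of 45 homeobox and patterning factors 2 fell, Dlx5 (-2.48, SE 0.53, adjusted p = 0.0154) and Tbx15 (-0.83, SE 0.22, adjusted p = 0.0401), against 0.811% of all probe sets. The groups overlapped in Dlx5, where the female cKO array lay within the controls, and neither gene passed with sex as a covariate. Tbx15 lay under the receptor level in both groups, and its call was lost after quantile normalization (adjusted p = 0.0854) and with arrays shifted to one median (0.0573). Of all 152 lower calls, 47 had a cKO mean under the receptor median, and 18 were themselves olfactory or vomeronasal receptors.

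Some genes that build and clear proteins were called, with smaller differences. Over all probe sets, 2.89% were called higher and 0.811% lower. Of 30 proteasome subunits 6 were called higher and 0 lower (median difference 0.40), led by Psma3 (1.27, SE 0.25, adjusted p = 0.0103), with 3 calls after quantile normalization and 0 with sex as a covariate. Of 25 translation factors 3 were higher, the poly(A) binding protein Pabpc1 (1.08, SE 0.20, adjusted p = 0.00678), the initiation factor subunit Eif3c (0.99, SE 0.19, adjusted p = 0.00819) and the cap-binding Eif4e (0.90, SE 0.21, adjusted p = 0.0233). Of 26 ribosome biogenesis genes 3 were higher, Npm1 (1.14, SE 0.23, adjusted p = 0.0107), Nop14 (1.05, SE 0.23) and Nop58 (1.38, SE 0.32). Among 27 splicing genes Tra2a, Cirbp and Clk4 were higher and Rbm5 lower (1.15, 1.40, 1.06 and -1.28, adjusted p = 0.0209, 0.0242, 0.0448 and 0.0442). After quantile normalization that list had 1 higher and 2 lower calls. Of 20 targets of the integrated stress response 2 were higher, the eIF2α phosphatase subunit Ppp1r15a (1.62, SE 0.25, adjusted p = 0.00264) and the lipoprotein receptor Vldlr (0.86, SE 0.22, adjusted p = 0.0299). Of 17 cytosolic tRNA synthetases Farsa alone rose (1.01, adjusted p = 0.0253).

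Enzymes that use 2-oxoglutarate and oxygen, the family of the HIF hydroxylases, had 4 of 26 members called higher, against 2.89% of all probe sets. Beside Egln1 they were the histone demethylase Kdm6b at 7.33, 7.33, 6.65 and 8.03 in controls and 8.55, 8.21, 9.6 and 9.66 in cKO (1.67, SE 0.34, adjusted p = 0.0121), the RNA demethylase Alkbh5 (0.99, SE 0.21, adjusted p = 0.0136) and Jmjd1c (1.26, SE 0.33, adjusted p = 0.0333). Kdm3a, a classic hypoxia-induced demethylase, was at 8.15 ± 0.97 and 8.73 ± 0.58 (adjusted p = 0.421). Of 32 antioxidant and metal genes 3 were higher, the heme oxygenase Hmox1 (1.10, SE 0.27), Sod2 (given above) and the glutathione reductase Gsr (0.97, SE 0.27), and of 23 sterol and fatty acid synthesis genes 1, Insig1 (1.17, SE 0.30, adjusted p = 0.0335). In Jmjd1c and Hmox1 the groups overlapped, and the female cKO array lay within the controls.

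Counts in the lists of disc matrix, ion handling and fat oxidation stood near the 3.7% called over all probe sets. Of 28 genes that build glycosaminoglycan chains Ext1 rose (1.01, SE 0.26, adjusted p = 0.0347, and 0.112 after quantile normalization). Of 23 metalloproteinases and inhibitors Adam10, a sheddase, fell by 1.08 (SE 0.26, adjusted p = 0.0248). Of 25 mechanosensitive and ion transport genes the channel Trpc1 rose (1.07, SE 0.23, adjusted p = 0.0154). Limma called 0 of 21 genes of collagen modification and crosslinking, 0 of 8 osmoadaptation genes, 0 of 16 genes of acid and bicarbonate handling and 0 of 20 genes of fatty acid oxidation.

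Markers of nucleus pulposus and notochord were read on the same arrays, and 4 of 15 lay under the receptor median. Over the 15, the mean level was 11.6 to 11.86 on controls and 11.91 to 12.06 in cKO. Their median difference was 0.025, and 9 of the 15 differences were positive. Car3 and Cd24a were above 17 on every 6-month array, Shh lay between 8.99 and 10, while Foxa2 (5.06 ± 0.33 and 5.34 ± 0.67) and Foxa1 (3.81 ± 0.20 and 4.24 ± 0.14), the notochord factors, lay near or under the receptor level. Of the 15, Slc2a1 and Krt18 were called higher. The 11 neutrophil markers had a mean level of 4.91 to 6.65 on controls, 5.65 and 5.39 on cKO arrays 1 and 2, and 8.92 and 9.82 on cKO arrays 3 and 4. Limma called 0 of them, and without cKO arrays 3 and 4 it called 84 probe sets in all (73 higher and 11 lower). In bulk tissue, fewer cells of a type and less RNA per cell cannot be told apart. Macrophage markers, 8 in all, had a mean level of 5.96 to 6.57 on controls and 5.84 to 7.03 in cKO. Of 7 lymphocyte markers Cd3e fell by 1.09 to 4.88 ± 0.41 (adjusted p = 0.0236), under the receptor level, and of 4 nerve markers S100b, which disc cells make too, rose by 1.17 (SE 0.24, adjusted p = 0.0136). Markers of erythroid cells, endothelium, muscle, annulus and tendon, end plate, osteoblasts, osteoclasts and fat gave 0 calls. The part of these cells in the differences was not tested.

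Among the 6-month arrays, a few genes were highest on cKO array 1, apart from the other 7. They come from the fit with sex within each age, which rests on that array, and were not called in the main comparison. Frzb, a secreted Wnt inhibitor, was at 5.98, 5.13, 6.34 and 5.83 in controls and 11.39, 5.99, 4.66 and 5.01 in cKO, and the superoxide dismutase Sod3 at 3.93, 4.01, 4.39 and 4.24 in controls and 6.6, 3.74, 4.15 and 3.62 in cKO. Cbr2, a carbonyl reductase, was at 6.76, 6.26, 6.4 and 6.63 in controls and 8.83, 6.2, 5.81 and 6.24 in cKO, and the repressor Id4 at 15.09, 15.5, 15.45 and 15.57 in controls and 17.33, 15.58, 15.77 and 15.92 in cKO. The 3 male cKO arrays were level with the controls or below them in Frzb, Sod3 and Cbr2. At 14 months Id4 was at 17.54 to 18.23 on all 8 arrays, above its level on cKO array 1. Frzb was then at 8.7, 6.15 and 5.51 on the female controls, 9.28 on the female cKO array and 5.58 to 6.82 on the male arrays. Jkamp, a membrane protein that binds the kinase JNK, was also highest there, at 13.38, 11.61, 11.9 and 11.3 in cKO against 10.78, 11.12, 10.5 and 10.58 in controls, and was called (1.30, SE 0.34, adjusted p = 0.0327). Klhl21, an adaptor of a ubiquitin ligase, was higher on all 4 arrays, at 10.22, 9.56, 10.19 and 9.79 against 7.89, 7.66, 7.91 and 8.26 (2.01, SE 0.21, adjusted p = 7.56e-05).

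The 6-month differences were set against those at 14 months, measured on other arrays. At 14 months limma called 0 of the 18732 probe sets (0%), while 637 had an unadjusted p under 0.05. The difference between the ages was tested directly, as the change of the cKO minus control difference from 6 to 14 months, and 17 probe sets passed (0.0908%). For 16 of them the difference was lower at 14 months. Nr4a1 differed by 3.92 at 6 months and -0.08 at 14 (SE 0.37; adjusted p of the change = 0.00828), Ifrd1 by 3.82 and 0.37 (SE 0.33; 0.00828), Tuba4a by 3.08 and 0.42 (SE 0.28; 0.0187) and Hk2 by 2.69 and -0.065 (SE 0.35; 0.0406). Slc2a1, Fam162a, Egln1 and the chaperone Hspa1a were among the 17. Ndnf turned the other way, from -2.22 to 0.59 (SE 0.37; adjusted p of the change = 0.0462). Sema3d, a guidance cue, and the laminin chain Lama3 changed sign. Sema3d differed by 1.64 at 6 and -2.57 at 14 months (SE 0.51; 0.0349), and Lama3 by 1.15 and -2.03 (SE 0.40; 0.0406), and neither was called at either age by itself. Both sexes were present in each group at 14 months, with 1 male array of 4 in controls and 3 of 4 in cKO, and with sex fitted within each age 0 probe sets passed. Leaving out cKO array 1 gave 105, leaving out control array 1 gave 5, and leaving out control array 3, cKO array 3 or cKO array 4 gave 2 each.

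**Figure D5:**
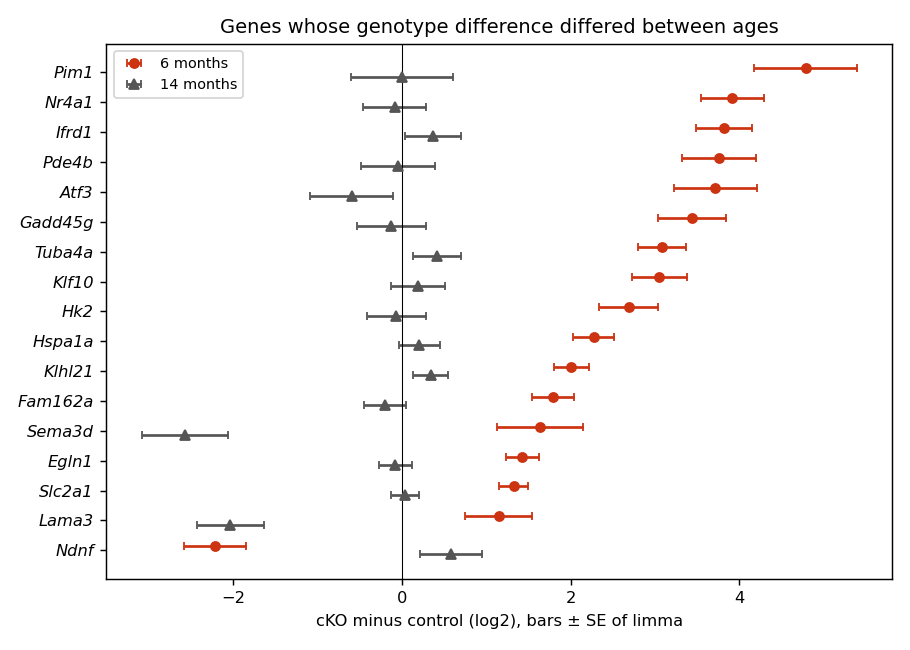
For the 17 genes whose genotype difference changed between the ages, the x axis gives cKO minus control (log2) at 6 months (circles) and at 14 months (triangles), with bars of 1 SE of limma. At 14 months 15 of the triangles lie between -1 and 1, among them Ndnf, while Sema3d and Lama3 lie at -2.57 and -2.03.

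Sex differences at 14 months were also set beside the 6-month calls. The median male minus female difference within genotype at 14 months was 0.15 over the higher calls, -0.09 over the lower calls and 0.01 over all 18732 probe sets, and 480 of the 693 calls (69.3%) had the sign of their call. The share over all 18732 probe sets was not taken. At 14 months the controls had 1 male array and the cKO group 1 female array. The median 6-month differences over the same calls were 1.17 and -1.01. The calls were chosen for their 6-month difference, so these sizes cannot be weighed against those at 14 months. The part of sex in the calls was not tested.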

How the data were processed

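Gene expression of nucleus pulposus tissue was measured on 16 arrays, 4 of each genotype at 6 and 14 months. The deposited values are log2 intensities per probe set, made by the authors, with background correction, normalization and software not given in the sources used here. The number of arrays limits the precision. Genes were named from the platform annotation. All 16 arrays were fitted as 4 group means with limma 3.58.1 in R 4.3.3, two-sided, with Benjamini-Hochberg adjustment over all 22206 probe sets and a threshold of 0.05. The fit was tested on simulated data. Alternatives changed the scaling, the filter on dim probe sets, the prior, the arrays, the sex terms and the replicate block.

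The members and lists were chosen with earlier results of these data known. Genes named are Epas1, the 12 largest rises and 12 largest falls among calls whose groups do not overlap and whose lower mean is above the receptor median (1 per gene; predicted, receptor and immunoglobulin genes left out), the 10 of smallest p with sex within each age, and up to 5 called members of each list. Other genes were named beside them after their values were seen. Deposited values are relative, so levels of different probe sets were not tested against each other. Plots used Python 3.11.15 with matplotlib 3.10.9.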

Additional observations from a re-analysis of the deposited data

Results flagged for a closer look

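Single arrays stood far from the other 3 of their group in 13 of 266 groups tested over 133 genes, where chance gives about 1 in 20. They were Tenm3 on control array 4 (10.17), Atf7ip on control array 3 (9.23), Cbr2 on cKO array 1 (8.83), Pdk1 on control array 3 (11.78), Nop14 on cKO array 3 (10.24), Hspb8 on cKO array 1 (12.05). The others were Slc7a1 on control array 4 (8.05), Slc7a1 on cKO array 1 (7.7), Gadd45a on cKO array 1 (9.1), Arntl on cKO array 1 (11.02), Ppp1r15a on cKO array 3 (6.69), Bnip3 on cKO array 2 (13.37) and Jup on control array 2 (8.31).

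The difference between cKO and control changed from 6 to 14 months in 17 genes, by the test of that change in limma. The change, 14 minus 6 months, and its adjusted p were as follows for the first of them by name: Atf3 (-4.307, 0.0263), Egln1 (-1.505, 0.0429), Fam162a (-1.988, 0.0406), Gadd45g (-3.56, 0.0263), Hk2 (-2.755, 0.0406), Hspa1a (-2.067, 0.0279), Ifrd1 (-3.45, 0.00828), Klf10 (-2.86, 0.0263). The same values for the rest were Klhl21 (-1.667, 0.0406), Lama3 (-3.18, 0.0406), Ndnf (2.8, 0.0462), Nr4a1 (-3.995, 0.00828), Pde4b (-3.805, 0.0266), Pim1 (-4.78, 0.0406), Sema3d (-4.205, 0.0349), Slc2a1 (-1.288, 0.0462) and Tuba4a (-2.662, 0.0187). Ndnf alone of the 17 had a positive change.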

How the results depend on the processing

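The settings below changed counts of calls. With sex within each age 691 of the 693 calls kept their sign. The median of the clock list went from 0.59 to -0.017 there, and that of the neutrophil markers from 1.25 to -0.29 there and to -0.49 without cKO arrays 3 and 4. Against 693 calls (541 higher, 152 lower), quantile normalization gave 713 (452 and 261), so 63.4% of calls were higher instead of 78.1%, and arrays shifted to one median gave 741 (636 and 105). The 6-month arrays alone gave 200 (157 and 43), sex as a covariate 55 (44 and 11), sex within each age 19 (15 and 4), leaving out cKO arrays 3 and 4 gave 84 (73 and 11), and leaving out control arrays 1 and 3 gave 43 (32 and 11). An adjusted p under 0.01 left 118 (101 and 17), and a 2-fold limit 450, of which 79 were lower. Leaving out 1 array gave 202 to 939 calls, 162 to 695 higher and 40 to 244 lower. The count of 17 for the change between ages became 41 with array weights, 39 with adjustment over the 18732 probe sets alone, 3 without cKO arrays 3 and 4, 0 without control arrays 1 and 3, 0 with sex within each age, and 2 to 105 with 1 array left out. The causes were not tested. Of 128 named calls, 11 held with sex within each age, 70 on the 6-month arrays alone, 61 without control array 3, 37 with sex as a covariate, 37 without cKO arrays 3 and 4 and 27 without control arrays 1 and 3, and 9 held under all 16 settings compared (Adgrg6, Dbp, Fam162a, Gadd45g, Hspa1a, Ifrd1, Klhl21, Nr4a1 and Tuba4a). Same-numbered control and cKO arrays did not deviate together (correlations -0.068, -0.22, 0.001 and 0.006). The labels do not say whether the numbers pair arrays, and these correlations cannot settle it. A replicate block gave 596 calls (482 and 114).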

Other observations

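Some gene families outside the lists were looked at after their values were seen. Over all probe sets, 2.89% were called higher. Of 15 α- and β-tubulin probe sets, the subunits of microtubules, 9 were called higher and 0 lower (median difference 0.95), and 2 passed with sex as a covariate. Of 67 core and linker histone probe sets 16 were higher and 0 lower (median 0.70). Their median on the female cKO array, 0.34 above the control mean, was below that of the male arrays (0.92). Of 56 cytosolic ribosomal proteins 19 were higher and 0 lower (median 0.85), and none passed with sex as a covariate. Their median on the female cKO array, 1.01 above the control mean, was not below that of the male arrays (0.80). Their median level in controls was 14.79, and counts for these families were not taken after quantile normalization. Close copies within these families may share probes.

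Among lower values, 5 of 22 α-defensins, peptides of intestinal Paneth cells, were called (median -0.71), and 18 of 1405 olfactory and vomeronasal receptors (median -0.24), where 0.811% of all probe sets were called lower. The receptors are dim on these arrays, at a median of 5.43 in controls and 5.20 in cKO.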
